A study of Rattus norvegicus with 18 samples.

Results

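The comparison concerned the lungs of rats treated with a multiwalled carbon nanotube (MWCNT), Year 1 against Year 0.5. It used all 3 MWCNT-treated rats of Year 0.5 and all 3 MWCNT-treated rats of Year 1, 6 of the 18 rats of the series, chosen by their labels and not by any measured value. The 6 control rats of the same years served as the background for age. All rats were male F344 rats (F344/DuCrlCrlj), an inbred strain with no transgene. From 9 weeks of age, the treated rats received MWNT-7, a long and straight type of MWCNT, at 0.5 mg/kg body weight every 4 weeks by intratracheal instillation, and the control rats (vehicle control) received the saline and Tween 80 vehicle on the same schedule. Year 0.5 rats were necropsied at week 26 and Year 1 rats at week 52 of the experiment. RNA came from pieces of the accessory lobe without grossly visible tumors. Age, time under exposure, and the number of instillations grew together, so they cannot be told apart within the treated rats.

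MWCNT fibers that reach the alveoli are taken up by macrophages, which digest them poorly, so that the fibers persist in the tissue. Persistent fibers are known to keep macrophages activated and to draw neutrophils from the blood. The epithelium answers such irritation with secreted defence proteins and mucins, and fibroblasts answer it with matrix. The question of the comparison was which genes still changed between Year 0.5 and Year 1 while the exposure continued.

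Total counts of the 6 treated rats ranged from 15487364 to 21130757 reads over 22081 genes, and those of the 6 control rats ranged from 13651405 to 17868851. No pair of rats in a group differed by less than sampling noise, and the scaling factors of the 6 treated rats lay between 0.986 and 1.01. Lung markers were present, since all 10 alveolar type 2 genes and all 8 alveolar type 1 genes examined were detected well enough to be tested. Heart muscle genes varied between pieces, with a summed level of 131 to 163 CPM (the read count per gene, scaled to library size with TMM factors) in the Year 0.5 rats and 18.8 to 285 CPM in the Year 1 rats. The study's methods describe the barcoded libraries as combined in equal molar amounts for sequencing. They do not say whether the years shared a pool or a run, and do not give the dates of RNA extraction or library preparation. Each library came from a separate rat, housed 3 per cage, and the p-values measure the spread between these rats.

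Of 14259 genes tested, 9 differed between Year 1 and Year 0.5 in the MWCNT-treated rats, which is 0.0631% of the genes. A gene was called when its false discovery rate (FDR) in edgeR's quasi-likelihood test was below 0.05 and its log2 fold change was above 1 in size. The 8 upregulated genes (0.0561%) were *Vat1l*, *Lpo*, *Muc20*, *S100a8*, *S100a9*, *Tmem45b*, *Kng1*, and *Foxs1*. The only downregulated gene (0.00701%) was *Drp2*. Every one of the 9 genes had CPM values that did not overlap between the years, which held in either direction for 8.15% (above) and 7.16% (below) of all tested genes. Most of the transcriptome moved little. The median size of the log2 fold change over all tested genes was 0.107, the 90th percentile was 0.348, and 119 genes exceeded 1 in size.

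**Figure D1:**
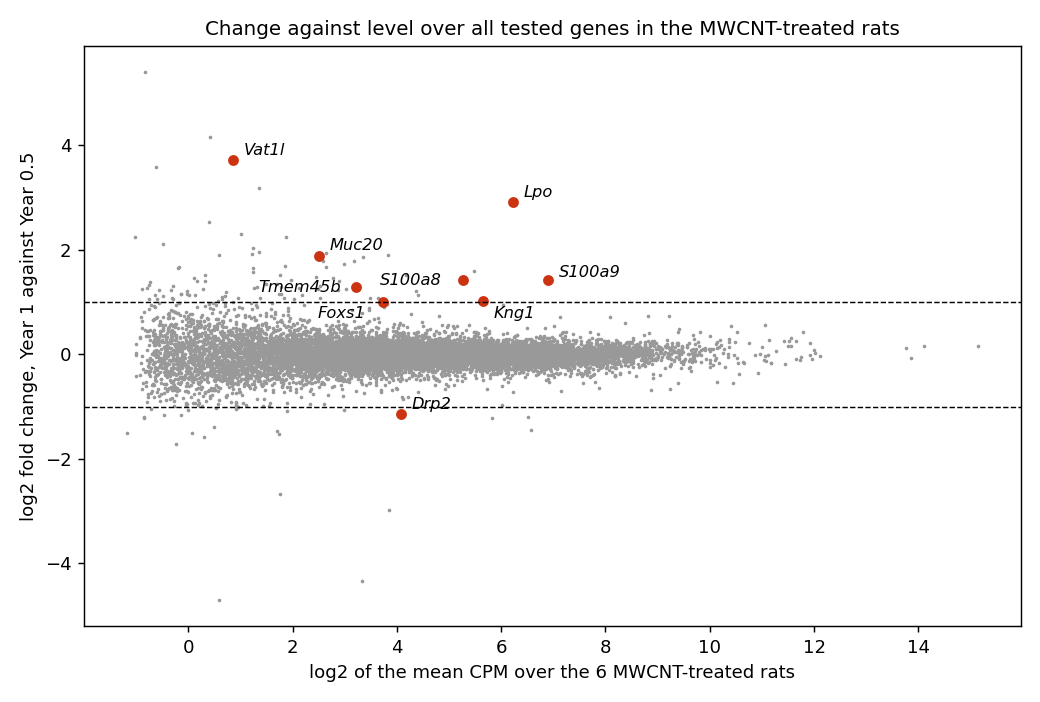
Log2 fold change (Year 1 against Year 0.5) against the log2 of the mean CPM for each of the 14259 genes tested in the 6 MWCNT-treated rats, with dashed lines at a log2 fold change of 1 and -1. The 9 called genes are in red, and *Lpo* stands apart at a high level with a log2 fold change of 2.91.

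*Lpo* encodes lactoperoxidase, a secreted peroxidase that makes antibacterial oxidants at mucosal surfaces. It lies on chromosome 10 (75100385 to 75120247, Rnor_6.0; ENSRNOG00000008422). The Year 0.5 treated rats had 15.5, 20.7, and 18.9 CPM, and the Year 1 treated rats had 172, 111, and 134 CPM. Each Year 1 rat was several times above each Year 0.5 rat. On the log2 scale the rise was 2.91 with a standard error of 0.17 (FDR 0.000284 by edgeR), that is 7.53-fold with a 95% interval of 5.73 to 9.88. In the control rats *Lpo* stayed between 0.194 and 0.696 CPM in both years, too low to be tested alone.

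*S100a8* and *S100a9* encode the subunits of calprotectin, a metal-binding protein that neutrophils carry in large amounts. *S100a9* (chromosome 2, 190097554 to 190100276, Rnor_6.0; ENSRNOG00000011483) had 67.3, 65.3, and 72.7 CPM at Year 0.5 and 194, 169, and 185 CPM at Year 1. *S100a8* (chromosome 2, 190073815 to 190074354, Rnor_6.0; ENSRNOG00000011557) had 20.8, 22.7, and 21.7 CPM at Year 0.5 and 61.4, 55.1, and 59.2 CPM at Year 1. The years were far apart and the rats within a year were close together for both genes. The rise was 2.67-fold for *S100a9* (95% interval 2.35 to 3.03, FDR 0.000284 by edgeR) and 2.69-fold for *S100a8* (95% interval 2.37 to 3.06, FDR 0.000284). The control rats had 24.0 to 29.2 CPM of *S100a9* at Year 0.5 and 29.2 to 41.1 CPM at Year 1. For *S100a8*, the control rats had 16.3 to 20.2 CPM and 14.2 to 28.7 CPM, so that the treated rats of Year 0.5 were just above the controls of their year.

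The promoter sequences of *S100a9* and *Lpo* are shown because these genes had the smallest FDR among the called genes for which a promoter was at hand. They are the 250 bases before the start of the gene in RefSeq on the assembly GRCr8, which differs from the assembly of the deposited counts. They are at chr2:178490623-178490872 and chr10:73123457-73123706, both on the minus strand and written from 5′ to 3′, with capitals at the letters TATAAA.
S100a9: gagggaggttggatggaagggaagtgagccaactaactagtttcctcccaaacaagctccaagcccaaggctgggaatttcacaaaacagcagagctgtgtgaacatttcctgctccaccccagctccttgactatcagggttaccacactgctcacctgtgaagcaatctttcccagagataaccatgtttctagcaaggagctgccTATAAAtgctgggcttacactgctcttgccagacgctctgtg
Lpo: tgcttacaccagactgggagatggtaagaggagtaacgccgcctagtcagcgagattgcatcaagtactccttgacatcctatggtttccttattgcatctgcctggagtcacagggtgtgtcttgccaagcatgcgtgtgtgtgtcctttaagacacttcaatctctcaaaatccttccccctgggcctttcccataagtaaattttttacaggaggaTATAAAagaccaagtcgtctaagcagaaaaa
The TATA letters begin 42 bases before the start in *S100a9* and 31 bases before it in *Lpo*. On either strand, TATAAA was found in 12.9% of the 33469 promoters of the same length, and in 3 of the 6 called genes with a promoter (*Lpo*, *S100a9*, and *Drp2*). The letters TTGCNNAA, a form of the C/EBP site, were in 9.22% of all promoters and in *Kng1* alone of these 6. The AP-1 letters TGANTCA (6.34% of all promoters) and an NF-kB motif of GGGA, any base, and TTTCC (0.314%) were in none of the 6. *S100a8*, *Tmem45b*, and *Foxs1* had no entry.

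Of the other upregulated genes, *Vat1l*, which encodes a protein resembling the vesicle amine transport protein VAT1 (chromosome 19, 46525919 to 46693838; ENSRNOG00000011989), had counts of 4, 3, and 6 reads in the Year 0.5 rats and 49, 48, and 66 reads in the Year 1 rats. Its fold change of 13.1 (95% interval 7.18 to 24.0, FDR 0.0119 by edgeR) therefore rested on a handful of reads at Year 0.5, and the control rats had 0.126 to 0.353 CPM in these years. *Muc20*, a membrane-bound mucin of epithelia (chromosome 11, 71222600 to 71236223; ENSRNOG00000001776), had 2.57, 2.34, and 2.67 CPM at Year 0.5 and 11.1, 8.13, and 8.81 CPM at Year 1. The mucin was 3.70-fold higher (95% interval 2.75 to 4.96, FDR 0.0107), whereas its control values of 0.632 to 1.64 CPM overlapped between the years.

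*Tmem45b*, a transmembrane protein gene (chromosome 8, 32563874 to 32609212; ENSRNOG00000008515), had 5.89, 5.42, and 5.53 CPM at Year 0.5 and 12.6, 14.2, and 14.6 CPM at Year 1, a 2.45-fold rise (FDR 0.0107 by edgeR). *Kng1* encodes kininogen, the precursor of bradykinin, and lies on chromosome 11 (81421676 to 81444621; ENSRNOG00000030387). It had 39.3, 31.5, and 33.5 CPM at Year 0.5 and 83.3, 65.5, and 61.2 CPM at Year 1, a 2.02-fold rise (95% interval 1.64 to 2.47, FDR 0.0414). *Foxs1*, a forkhead transcription factor gene (chromosome 3, 148406513 to 148407778; ENSRNOG00000008529), had 8.33, 10.2, and 9.11 CPM at Year 0.5 and 19.6, 19.3, and 16.9 CPM at Year 1, a 2.01-fold rise (95% interval 1.66 to 2.43, FDR 0.0346). In the last pair the lower bound of the log2 fold change was 0.72 and 0.73, under the fold limit of the call. For all 3 genes, the lowest Year 1 rat was clearly above the highest Year 0.5 rat.

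*Drp2* encodes dystrophin-related protein 2, a scaffold protein best known from Schwann cells (chromosome X, 105239620 to 105289808; ENSRNOG00000026704). It had 24.9, 28.3, and 19.5 CPM at Year 0.5 and 10.6, 12.1, and 10.3 CPM at Year 1. Every Year 1 rat was below every Year 0.5 rat, with a log2 fold change of -1.14 and a standard error of 0.15 (FDR 0.0414 by edgeR). The Year 0.5 controls had 11.6, 6.89, and 10.9 CPM, so that 2 of the 3 treated rats of Year 1 were within their range. The control rats of Year 1 had 7.21, 7.91, and 5.62 CPM.

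**Figure D2:**
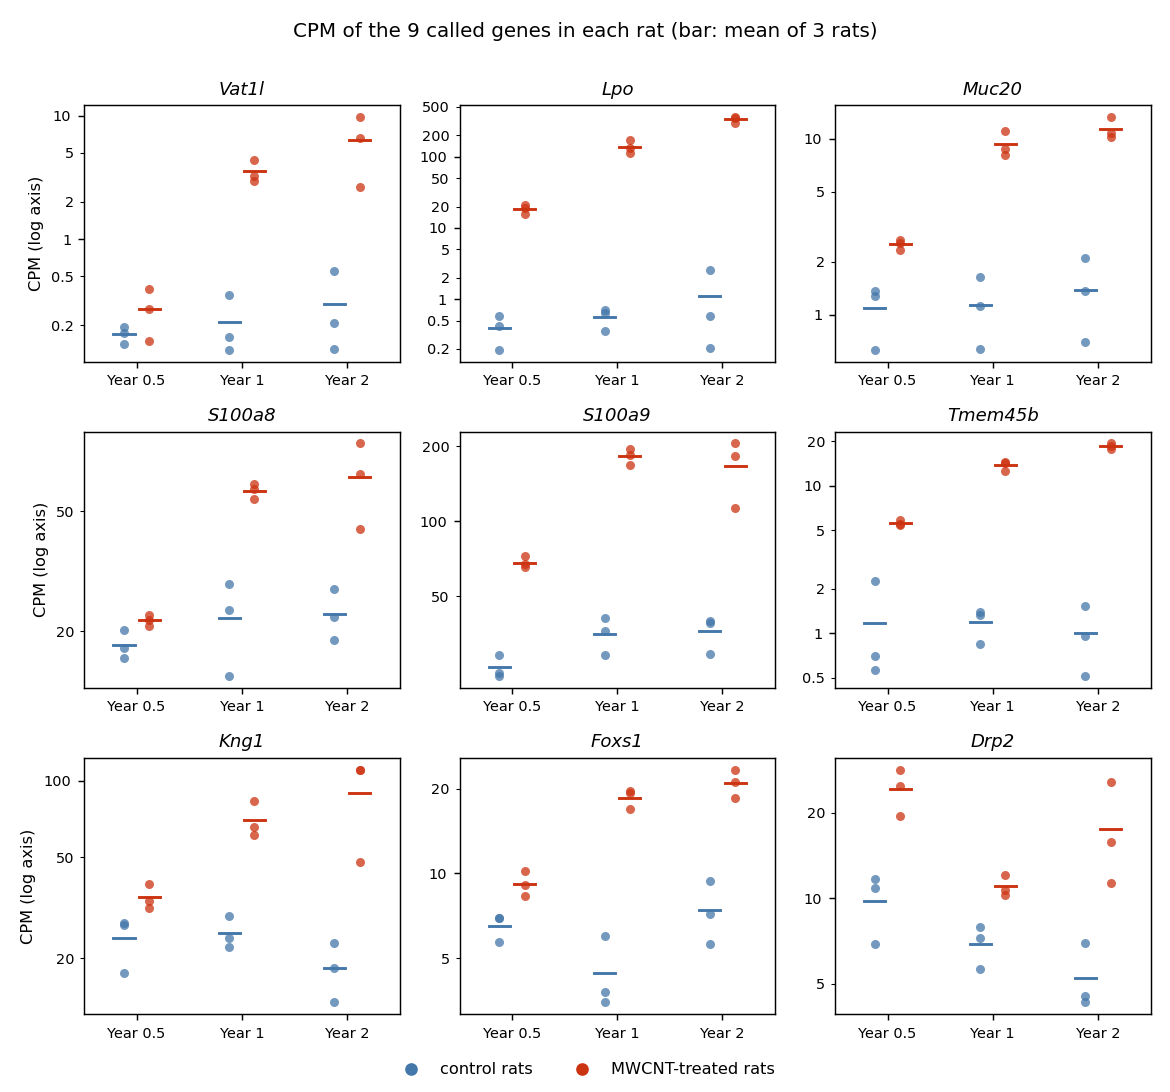
CPM of each of the 9 called genes (log axis) in every rat of Years 0.5, 1, and 2, with control rats in blue, MWCNT-treated rats in red, and a bar at the mean of 3 rats. From Year 0.5 to Year 1 the red points move without overlap in all 9 panels, as for *Lpo* from at most 20.7 CPM to at least 111 CPM.

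The calls differed in how far they depended on single rats. *Lpo*, *S100a8*, and *S100a9* were called when any 1 of the 6 rats was left out, with the largest FDR at 0.00583, 0.00539, and 0.00564 by edgeR. *Muc20* and *Vat1l* lost the call without replicate 1 of Year 0.5, replicate 2 of Year 0.5, or replicate 3 of Year 1, with FDRs of up to 0.0749 and 0.0909. *Tmem45b* lost it in the same 3 cases and also without replicate 3 of Year 0.5 (FDR up to 0.0838). *Kng1* and *Foxs1* lost it without any 1 of the 6 rats, and *Drp2* lost it in all cases except without replicate 3 of Year 0.5, with FDRs of up to 0.173, 0.146, and 0.215. The log2 fold changes of these 3 genes then ranged from 0.87 to 1.10, from 0.94 to 1.09, and from -1.28 to -1.01.

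A further 3 genes had an FDR below 0.05 and a smaller change, so that 12 genes (0.0842%) passed by the FDR alone. These 3 are named after their values were seen. *Hp*, the hemoglobin-binding acute phase protein haptoglobin, had 111, 115, and 106 CPM at Year 0.5 and 183 CPM in each Year 1 rat, which is 0.72 higher on the log2 scale with a standard error of 0.06 (FDR 0.0067 by edgeR). *Tf*, the iron carrier transferrin, had 225, 229, and 189 CPM at Year 0.5 and 346, 381, and 334 CPM at Year 1 (log2 fold change 0.72, FDR 0.0414). *Acsbg1*, an acyl-CoA synthetase of long-chain fatty acids, had 8.94, 9.15, and 10.7 CPM and then 19.4, 16.9, and 18.7 CPM (log2 fold change 0.93, FDR 0.0414). For each of these genes the lowest Year 1 rat exceeded the highest Year 0.5 rat.

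In the control rats, 0 of 14243 tested genes were called between Year 1 and Year 0.5 by edgeR (0.0%), and 1042 genes (7.32%) had an unadjusted p below 0.05, 3.81% higher and 3.51% lower, against 1140 genes (7.99%) in the treated rats. The CPM of the control rats lay entirely above for 5.74% and entirely below for 6.09% of the tested genes. DESeq2 called 5 genes in the control rats and 28 in the treated rats, and edgeR called 7 in the control rats without replicate 1 of Year 1. Whether the change with time differed between treated and control rats was tested by the interaction of treatment and time in the 12 rats, and 0 of 14630 genes passed an FDR of 0.05 by edgeR. An unadjusted p below 0.05 was found for 1173 genes (8.02%, with 3.84% higher and 4.18% lower), and the smallest FDR was 0.323, shared by *Foxs1* and *S100a9*. DESeq2 passed 12 genes in this test, among them *Foxs1*, *Lpo*, *S100a8*, and *S100a9*, the likelihood ratio test passed 7, and limma on log2(TPM + 1) passed *Lpo* alone. That the 9 genes changed by a different amount in the treated rats was therefore not established by the main test.

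The interaction estimates of the 9 genes are given as a description. These genes were selected for a large change in the same treated rats, so their estimates are biased away from 0, and their intervals are not adjusted for that selection. The change of *Lpo* was larger in the treated rats by 2.42 on the log2 scale (95% interval 1.10 to 3.74, FDR 0.594 by edgeR), that of *S100a9* by 0.97 (0.62 to 1.31, FDR 0.323), and that of *S100a8* by 1.13 (0.57 to 1.69, FDR 0.594). *Foxs1* differed by 1.58 (1.03 to 2.14), with a log2 fold change of -0.57 (95% interval -0.98 to -0.16) in the controls in the same model. For *Drp2*, the controls had a log2 fold change of -0.52 (95% interval -0.96 to -0.08), and the difference between the treatments was -0.62 (-1.23 to -0.02, FDR 0.612). *Acsbg1* was higher at Year 1 in the controls too, by 0.64 (95% interval 0.30 to 0.98), and the difference of 0.30 had an interval from -0.14 to 0.73.

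**Figure D3:**
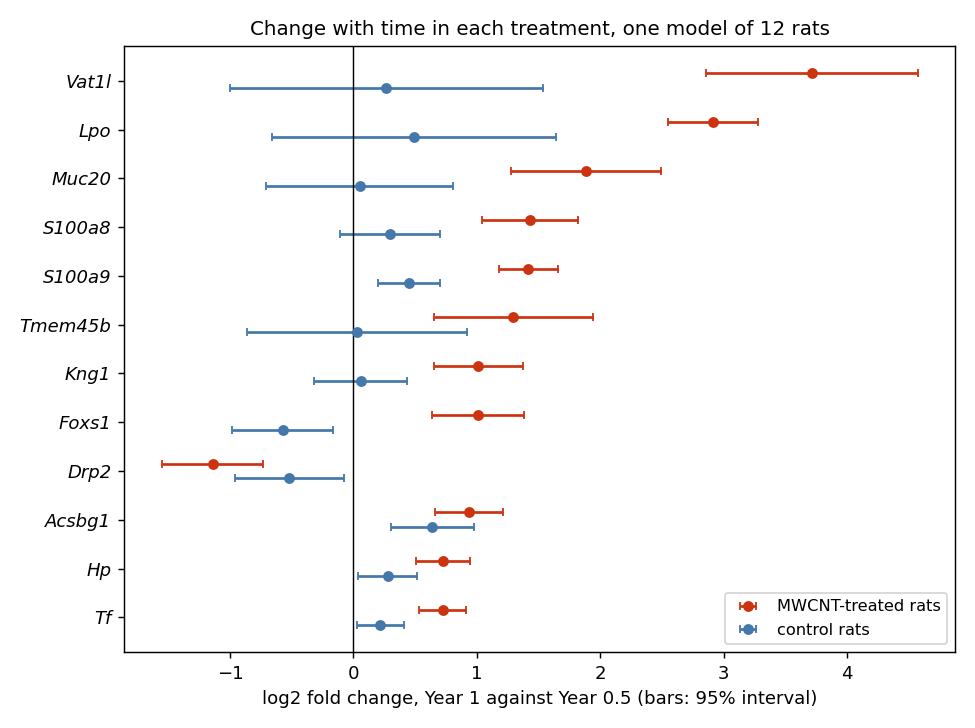
Log2 fold change of Year 1 against Year 0.5 in the MWCNT-treated rats (red) and the control rats (blue) for the 9 called genes and for *Acsbg1*, *Hp*, and *Tf*, with 95% intervals from one model of 12 rats. *Vat1l* and *Lpo* have the largest values in the treated rats (3.71 and 2.91), and the control intervals of *S100a9*, *Foxs1*, *Drp2*, *Acsbg1*, *Hp*, and *Tf* do not include 0.

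Genes of cell types and pathways were examined in 44 lists, of which 2 held a called gene in the treated rats. Over all tested genes, 4.48% were higher and 3.51% lower at Year 1 at an unadjusted p below 0.05, and the median log2 fold change was 0.00149. In the neutrophil list, 8 of 10 genes were tested, 2 were called (*S100a8* and *S100a9*), 7 were higher at an unadjusted p below 0.05, and the median log2 fold change was 0.62. The summed level of the list was 553 to 615 CPM at Year 0.5 and 839 to 942 CPM at Year 1, against 127 to 179 CPM and 174 to 249 CPM in the control rats. Most of this sum came from members other than *S100a8* and *S100a9*. Without *S100a8* and *S100a9*, the median of the remaining 6 was 0.50. *Mmp8*, the neutrophil collagenase, had 7.31, 8.65, and 8.33 CPM and then 16.2, 14.6, and 14.3 CPM, which did not overlap (log2 fold change 0.89, FDR 0.0595 by edgeR). *Cd177*, a neutrophil surface protein, and *Lcn2*, the iron-scavenging lipocalin of neutrophils and epithelium, had log2 fold changes of 0.40 and 0.43 (FDR 0.297 and 0.443). In the control rats, the median of the list was 0.40, and 4 of 8 tested genes were higher at an unadjusted p below 0.05. There, *Mmp8* had 0.77 (95% interval 0.24 to 1.30, FDR 0.639), *Cd177* had 0.47, and *Lcn2* had -0.11. In bulk tissue, more neutrophils, more RNA per neutrophil, and RNA of the same genes from other cells, such as epithelium for *Lcn2*, cannot be told apart.

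*Lpo* was the called gene of the list of oxidant defence and metallothioneins, of which 20 members were tested, 7 higher and 1 lower at an unadjusted p below 0.05 (median log2 fold change 0.16). *Hmox1*, the heme-degrading oxygenase, had 115, 118, and 95.1 CPM at Year 0.5 and 147, 157, and 174 CPM at Year 1, without overlap (log2 fold change 0.54, FDR 0.18 by edgeR). In the control rats *Hmox1* had a log2 fold change of 0.63 (95% interval 0.28 to 0.98), and the difference between the treatments was -0.09 (95% interval -0.52 to 0.34). *Mt3*, a metallothionein that buffers zinc and copper, had 8.26, 10.9, and 3.71 CPM and then 10.1, 19.8, and 10.1 CPM, which overlapped between the years (log2 fold change 0.80, 95% interval -0.07 to 1.67, FDR 0.646).

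Among acute phase and complement genes, none of the 23 tested was called. Of these, 10 were higher and 0 lower at an unadjusted p below 0.05, and the median log2 fold change was 0.29, against 0.15 in the control rats. *Hp* passed the FDR alone. *C4b* and *C3*, complement proteins that coat particles for uptake, had log2 fold changes of 0.74 and 0.53 (FDR 0.142 and 0.189 by edgeR), and the CPM of both did not overlap between the years. *C3* had 1129, 1242, and 1110.1 CPM at Year 0.5 and 1737, 1470.1, and 1839 CPM at Year 1. In the control rats, *C4b* and *C3* each had a log2 fold change of 0.36. *Orm1*, the acute phase protein orosomucoid, had counts of 5, 1, and 1 reads at Year 0.5 and 64, 42, and 17 reads at Year 1 (FDR 0.141), and the control rats of these years had at most 2 reads. It was the tested member with the largest change, and its fold rests on very few Year 0.5 reads.

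Mast cell genes had the largest median of any list, 1.42, and none was called. Of 8 tested genes, 6 were higher at an unadjusted p below 0.05. In the control rats 4 of 5 tested genes were positive and 1 was higher at an unadjusted p below 0.05, with a median of 0.40. The medians cover different genes, since *Tpsab1*, *Cma1*, and *Mcpt1* were tested in the treated rats alone. *Tpsb2*, a mast cell tryptase, had 1.63, 5.42, and 0.846 CPM at Year 0.5 and 5.92, 17.1, and 8.48 CPM at Year 1 (log2 fold change 1.94, 95% interval 0.58 to 3.30, FDR 0.507 by edgeR). The control rats had a log2 fold change of 0.74 for *Tpsb2*, and the difference between the treatments was 1.21 (95% interval -0.84 to 3.26). *Cpa3*, the mast cell carboxypeptidase, had 2.51, 7.51, and 1.24 CPM and then 5.92, 24.7, and 7.88 CPM (log2 fold change 1.73, FDR 0.592). Replicate 2 was the highest rat of its year for both genes, and for *Cpa3* the years overlapped. *Kit*, the stem cell factor receptor, which mast cells share with other lung cells, was at 134 to 175 CPM and then 112 to 171 CPM (log2 fold change -0.15, 95% interval -0.50 to 0.20).

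**Figure D4:**
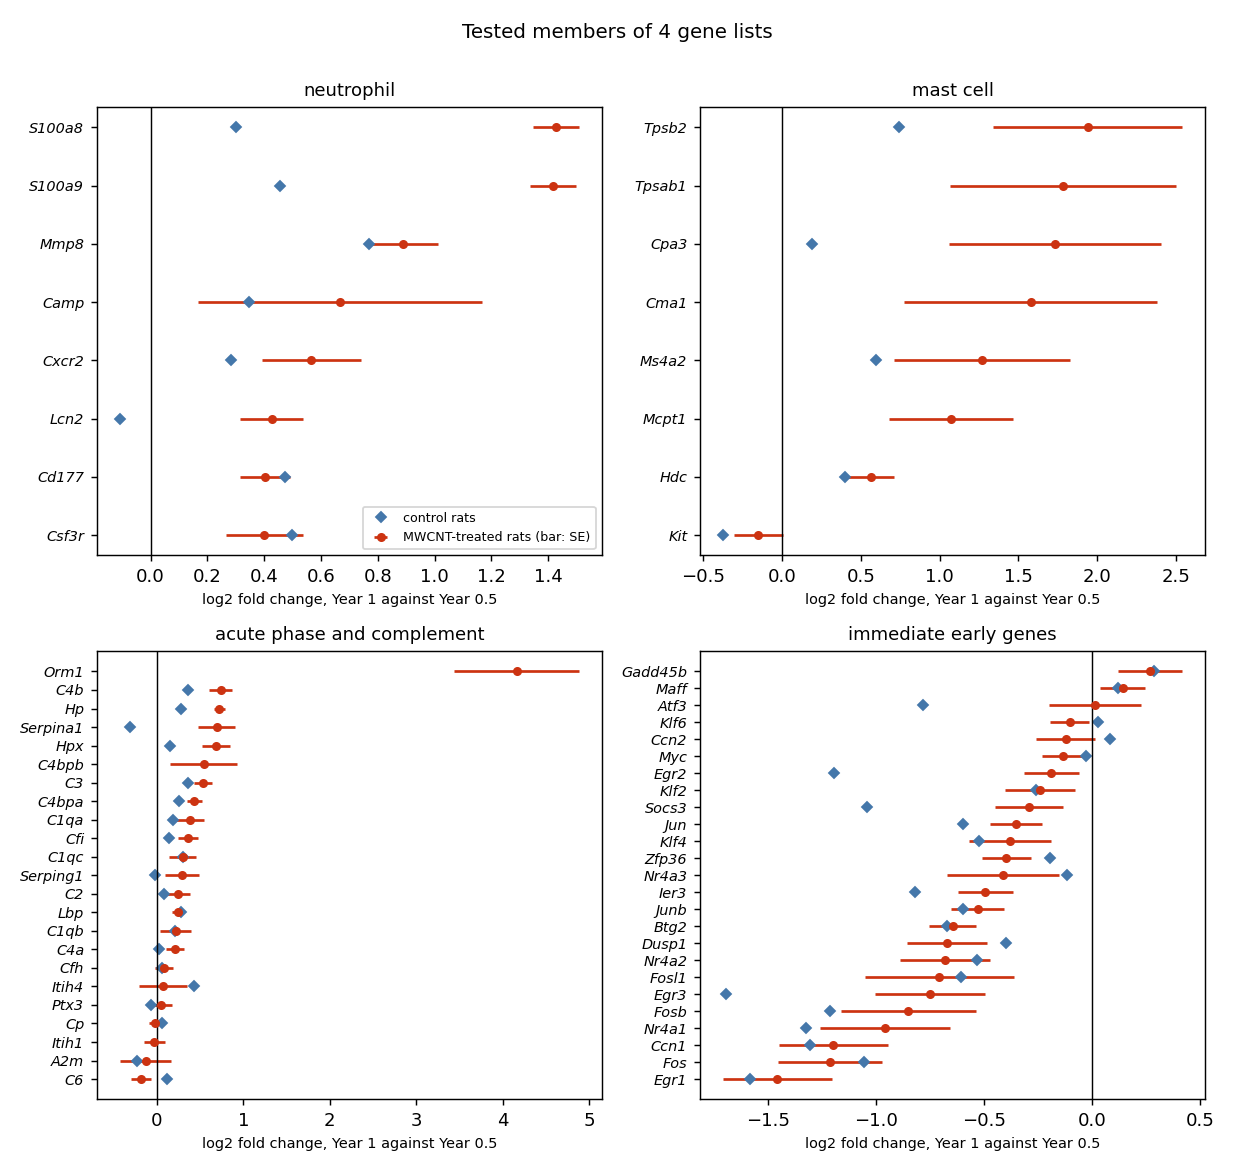
Log2 fold change of Year 1 against Year 0.5 for the tested members of the neutrophil, mast cell, acute phase and complement, and immediate early gene lists, with red points and standard errors for the MWCNT-treated rats and blue diamonds for the control rats where the gene was tested. *S100a8* and *S100a9* lie at 1.43 and 1.42 with small errors, the mast cell genes other than *Kit* (-0.15) lie above 0, most of them with wide errors, and the immediate early genes are mostly below 0 in both treatments.

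None of the macrophage genes was called between the years. *Spp1* encodes osteopontin, a secreted phosphoprotein of activated macrophages, and had a log2 fold change of -0.25 (95% interval -0.63 to 0.13, FDR 0.721 by edgeR). *Mmp12*, the macrophage elastase, had 251, 237, and 192 CPM at Year 0.5 and 263, 306, and 264 CPM at Year 1 (log2 fold change 0.29, 95% interval 0.05 to 0.54, FDR 0.584). *Marco*, a scavenger receptor that binds particles, had 1.83, 2.93, and 1.69 CPM and then 2.86, 8.06, and 3.51 CPM, with an overlap of the years (log2 fold change 1.14, FDR 0.58). In the list of lipid-laden macrophage genes, 17 of 19 tested members had a positive log2 fold change, 9 were higher at an unadjusted p below 0.05, none was called, and the median was 0.25. In the control rats, 12 of 18 were positive, 0 were higher or lower at an unadjusted p below 0.05, and the median was 0.03. The smallest FDR of the interaction in this list was 0.594 by edgeR. The list of general macrophage genes had a median of 0.20 in the treated rats and 0.21 in the control rats.

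Signals between immune cells also showed no call. The 29 tested chemokine ligands had a median of 0.19, with 6 higher and 2 lower at an unadjusted p below 0.05. *Ccl2*, which attracts monocytes, was at 24.4 to 37.7 CPM and then 29.1 to 41.8 CPM (log2 fold change 0.19, 95% interval -0.22 to 0.61, FDR 0.794 by edgeR). *Ccl11*, the eosinophil attractant eotaxin, had the largest difference in size of the list, with 4.40, 3.83, and 3.12 CPM and then 1.53, 2.42, and 1.72 CPM (95% interval of the log2 fold change -1.58 to -0.41, FDR 0.443). *Il6*, an inducer of the acute phase response, stayed at 0.464 to 1.49 CPM over both years (log2 fold change -0.57, 95% interval -1.59 to 0.45). *Chia*, an acidic chitinase of the type 2 response, had 428, 527, and 446 CPM and then 843, 801, and 701 CPM, without overlap (log2 fold change 0.74, FDR 0.0632). The other genes of the type 2 list had a log2 fold change of at most 0.41 upward, and the median over its 11 tested genes was 0.04. In the control rats *Chia* had a log2 fold change of 0.29, and the difference between the treatments was 0.46 (95% interval -0.09 to 1.00).

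Matrix genes lay on the lower side at Year 1. Of 27 tested matrix protein genes, 25 had a negative log2 fold change, 10 were lower and 0 higher at an unadjusted p below 0.05, and none was called (median -0.19). *Col1a1*, a chain of the main fibrillar collagen, had 798, 846, and 692 CPM at Year 0.5 and 514, 442, and 527 CPM at Year 1, without overlap (log2 fold change -0.66, 95% interval -0.89 to -0.42, FDR 0.109 by edgeR). *Col3a1*, its partner in elastic tissues, had a log2 fold change of -0.55 (95% interval -0.76 to -0.35, FDR 0.129). The control rats had a median of -0.14 for the list and log2 fold changes of -0.43 and -0.42 for these genes, and the difference between the treatments was -0.22 for *Col1a1* (95% interval -0.68 to 0.25). Among 17 matrix proteases and inhibitors the median was -0.02. *Mmp9*, a gelatinase of neutrophils and macrophages, was the member with the largest difference, at 5.47 to 10.2 CPM and then 12.2 to 23.9 CPM (log2 fold change 1.07, FDR 0.443). The control rats had a log2 fold change of 0.42 for *Mmp9*, and the difference between the treatments was 0.65 (95% interval -0.16 to 1.46).

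Genes of mitosis and DNA replication had a negative log2 fold change in 29 of 35 tested members, with a median of -0.18, 8 lower at an unadjusted p below 0.05, and none called. *Mki67*, the proliferation marker Ki-67, had 44.8, 55.5, and 43.8 CPM at Year 0.5 and 37.0, 31.9, and 36.8 CPM at Year 1 (log2 fold change -0.45, 95% interval -0.71 to -0.20, FDR 0.406 by edgeR). In the control rats, 24 of 34 tested members were positive and 10 were negative, with a median of 0.09. Of these, 3 were higher and 1 was lower at an unadjusted p below 0.05. *Mki67* had 0.40 (95% interval 0.14 to 0.66) in the control rats, and the difference between the treatments for this gene was -0.84 (95% interval -1.20 to -0.48, FDR 0.594 by edgeR). *Mki67* passed the test of the difference by DESeq2 and by the likelihood ratio test, but not by the main test. It was chosen after its values were seen, and its intervals are not adjusted for that selection.

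Immediate early genes, which are transcribed within minutes of a stimulus to a cell, had the lowest median, -0.42. Of 25 tested genes, 13 were lower and 0 higher at an unadjusted p below 0.05, and none was called. *Egr1*, an early growth response transcription factor gene, had 203, 143, and 93.3 CPM and then 52.3, 43.9, and 63.5 CPM (log2 fold change -1.46, FDR 0.141 by edgeR), and *Fos* had a log2 fold change of -1.21 (FDR 0.207). The control rats showed the same direction, with a median of -0.60 and log2 fold changes of -1.59 for *Egr1* and -1.06 for *Fos*. The difference between the treatments was 0.14 for *Egr1* (95% interval -0.91 to 1.18).

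For other cell types, the median log2 fold changes were -0.08 for alveolar type 1, 0.06 for alveolar type 2, -0.12 for ciliated, -0.10 for endothelial, -0.11 for fibroblast, -0.21 for smooth muscle, 0.15 for T cell, -0.13 for B cell, and 0.01 for plasma cell genes, and none of their members was called. All 7 smooth muscle genes had a negative log2 fold change, 1 of them at an unadjusted p below 0.05, as did 6 of 7 in the control rats (median -0.09). Of 11 ciliated cell genes, 10 had a negative log2 fold change and 3 were lower at an unadjusted p below 0.05, whereas 10 of 11 were positive in the control rats (median 0.16). Mesothelial genes, which mark the pleural surface, had a median of 0.56 over 5 tested genes and 4 higher at an unadjusted p below 0.05. Of these, *Wt1*, the mesothelial transcription factor, had 2.78, 3.28, and 2.80 CPM at Year 0.5 and 8.25, 5.46, and 5.83 CPM at Year 1 (log2 fold change 1.13, 95% interval 0.64 to 1.63, FDR 0.189 by edgeR). Its control values of 1.11 to 6.21 CPM spanned most of that range, and the share of pleura in each piece was not tested. *Dlk1*, an imprinted growth regulator, had 0.88, 0.945, and 2.21 CPM and then 8.52, 2.73, and 7.82 CPM (log2 fold change 2.24, 95% interval 1.12 to 3.37, FDR 0.297). The control rats were at 38.8 CPM or above in both years, and their log2 fold change for *Dlk1* was 0.80.

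The leading member of each of the other cell type lists was the tested gene with the largest difference, and none was called. For *Gzmb*, *Dnah5*, *Etv5*, *Myh11*, *Inmt*, and *Uchl1*, the 95% interval excluded 0 and the years did not overlap. These genes were picked for the size of their change, and the intervals are not adjusted for that. *Gzmb*, the granzyme of cytotoxic cells, had 2.44, 2.59, and 1.69 CPM and then 3.73, 9.80, and 4.44 CPM (log2 fold change 1.41, FDR 0.46 by edgeR), and the control rats had a log2 fold change of 2.03. *Dnah5*, a dynein of motile cilia, had 13, 8.65, and 9.69 CPM and then 6.06, 5.15, and 6.89 CPM, without overlap (log2 fold change -0.79, FDR 0.394). *Etv5*, a transcription factor that maintains alveolar type 2 cells, was at 162 to 168 CPM and then at 122 to 142 CPM (log2 fold change -0.36, FDR 0.297). *Myh11*, the smooth muscle myosin, was lower without overlap as well, by -0.54 on the log2 scale (FDR 0.46). *Inmt* of fibroblasts had 0.54 (FDR 0.507) and the neuronal *Uchl1* 0.88 (FDR 0.545), while most members of their lists were negative. These were 6 of 9 tested fibroblast genes (median -0.11) and 12 of 15 neuroendocrine and nerve genes (median -0.30). *Etv5* also differed in sign from most of its list, in which 6 of 10 tested genes were positive.

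Some leading genes followed single rats and not the year. *Bpifa1*, a secreted protein of the airway epithelium, had 83.0, 3.93, and 8.98 CPM and then 9.85, 79.8, and 35.6 CPM. *Krt5*, the keratin of basal cells, was at 15.6 CPM in replicate 1 of Year 0.5 and at 0 to 4.34 CPM in the other 5 treated rats. *Zbtb16*, a glucocorticoid-responsive transcription factor gene, reached 97.3 CPM in replicate 3 of Year 0.5 and 78.4 CPM in replicate 3 of Year 1 and stayed at 6.76 to 16.6 CPM in the other 4. Their log2 fold changes of 0.41, -1.53, and -0.39 had FDRs of 0.925, 0.806, and 0.932 by edgeR. For *Vwf*, *Rtkn2*, *Lyve1*, *Cr2*, *Tnfrsf17*, *Cd5*, *Ahsp*, *Cidec*, *Ckm*, *Tnnt2*, *Comp*, *Il24*, *Dcstamp*, *Ifit1*, *RT1-Db1*, *Dbp*, *Sqle*, and *Ndrg1*, the years overlapped and the 95% interval of the log2 fold change included 0. *Ccr3*, a receptor of eosinophils (-0.34, FDR 0.678), *Chac1* of the endoplasmic reticulum stress response (-0.49, FDR 0.656), and the kinetochore gene *Ndc80* (-0.55, FDR 0.587) were lower without overlap, and the growth factor gene *Areg* had -0.74 with an overlap (FDR 0.621 by edgeR).

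**Figure D5:**
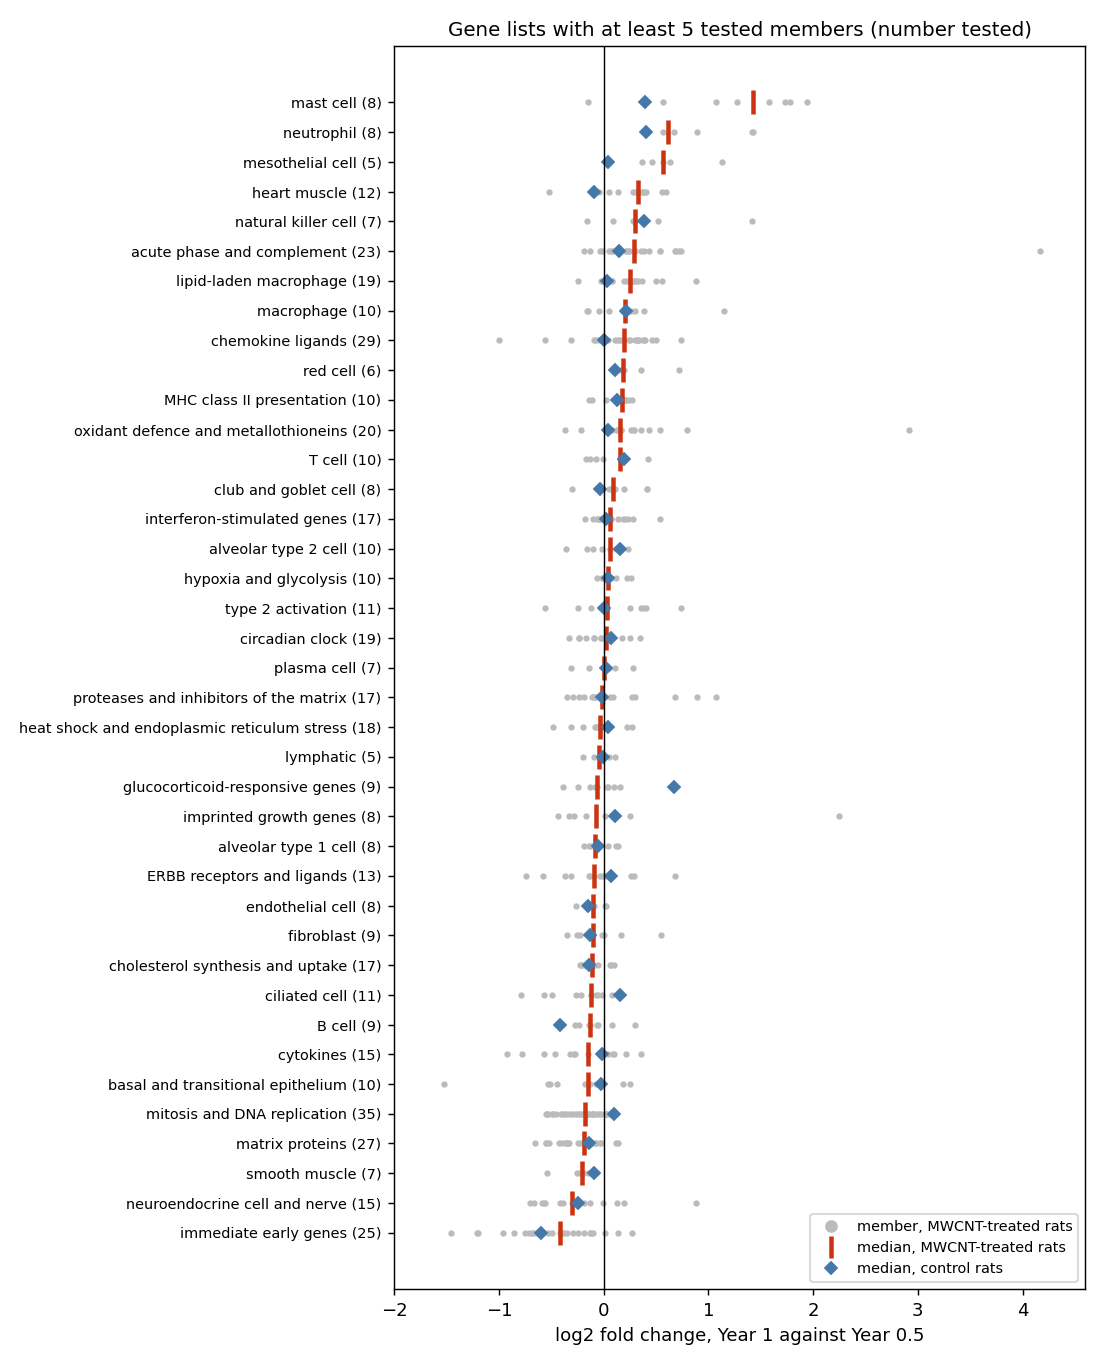
Log2 fold change of Year 1 against Year 0.5 for the lists with at least 5 tested members (number in brackets), with grey points for members and a red tick for the median in the MWCNT-treated rats and a blue diamond for the median in the control rats. The mast cell (1.42), neutrophil (0.62), and mesothelial (0.56) lists have the highest red ticks, and the immediate early genes the lowest (-0.42).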

How the data were processed

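Lung RNA-seq libraries (NEBNext Ultra II RNA, no strand marking stated) were counted by the authors with CLC Genomics Workbench 22.0.2 on Rnor_6.0 (rn6) per the labels. The authors deposited whole-number counts of reads per gene, without normalization, which were the values tested. The TPM values, deposited by the authors and scaled for gene length and library total, were used in 2 alternatives. Deposited RPKM and CPM values and the authors' own comparison columns (fold changes, p-values and FDRs) were not used. Without strand, reads of overlapping and antisense genes cannot be told apart.

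The 3 tables were joined by gene identifier. Counts of the 6 rats were tested in R 4.3.3 with edgeR 4.0.16 (filterByExpr at its defaults, 10 reads as the smallest count and 15 as the smallest total, TMM factors, quasi-likelihood test, Benjamini-Hochberg FDR below 0.05 and log2 fold change above 1 in size, the authors' criterion). The control rats and the interaction in 12 rats were fitted likewise, the interaction without a fold limit. Standard errors came from the F statistic. CPM of single rats were scaled by TMM over all 18 rats. The script was tested on simulated data. Total counts set the counting error, and 3 rats per group set the precision.

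Alternatives were DESeq2 1.42.0, library size only, upper quartile factors, no filter, at least 10 counts in every rat, the likelihood ratio test, limma 3.58.1 on log2(TPM + 1) and log2(TPM + 0.1), all 18 rats, the FDR alone, an FDR below 0.01, the replicate block, and each rat left out. Added after the data were seen were an FDR below 0.1 and the neutrophil list without *S100a8* and *S100a9*.

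Named genes were the called genes with the largest rise or fall (up to 10 each) or the highest mean CPM (10), in each list up to 4 called members or, with none, the tested member with the largest change, 5 interaction genes in each direction, and *Spp1*, *Mmp12*, *Mt3*, *Lpo*, *Dlk1*, *Ccl2*, *Il6*, *Hmox1*, and *Marco*. *Hp*, *Tf*, *Acsbg1*, *Mmp8*, *Cd177*, *Lcn2*, *C3*, *C4b*, *Cpa3*, *Kit*, *Col3a1*, *Fos*, *Mki67*, and *Pla2g2a* were chosen after their values were seen. *Gapdh* was not analysed here. The comparison and the lists were chosen with earlier results of these data known.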

Additional observations from a re-analysis of the deposited data

Results flagged for a closer look

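The Year 2 rats were in none of the compared groups, although they entered the alternative model of all 18 rats and the scaling of the CPM values. All 9 called genes were above the control rats of Year 2 in every treated rat of that year. The share of all tested genes with the same separation at Year 2 was not counted, so this has no baseline. Mean values were 334 CPM for *Lpo*, 167 CPM for *S100a9*, 64.8 CPM for *S100a8*, 89.3 CPM for *Kng1*, 21.0 CPM for *Foxs1*, 18.6 CPM for *Tmem45b*, 17.6 CPM for *Drp2*, 11.4 CPM for *Muc20*, and 6.35 CPM for *Vat1l*. *Lpo* had 360, 347, and 296 CPM at Year 2, each above the highest Year 1 rat at 172 CPM, and at most 2.59 CPM in the Year 2 controls. *Tmem45b* had 18.6, 19.4, and 17.8 CPM, also above every Year 1 rat. The Year 2 values of *S100a8*, *S100a9*, *Kng1*, *Foxs1*, *Muc20*, and *Vat1l* overlapped with those of Year 1. *Drp2*, which was lower at Year 1, had 15.7, 25.7, and 11.3 CPM at Year 2 and overlapped with both earlier years. These differences between Year 1 and Year 2 were not tested.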

How the results depend on the processing

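The 9 calls (8 higher, 1 lower) became 28 (24 and 4) with DESeq2, 36 (27 and 9) with the likelihood ratio test, and 3 (3 and 0) at an FDR below 0.01. The lower count was 0 with upper quartile factors, with limma on log2(TPM + 0.1), and in the model of all 18 rats, and 2 without a filter and at an FDR below 0.1, a limit chosen after the data were seen. With each rat left out, the counts ranged from 3 to 8 in all, from 3 to 7 higher, and from 0 to 2 lower, with 3 in all without replicate 1 of Year 0.5 or replicate 3 of Year 1. All 9 genes were called by DESeq2, by the likelihood ratio test, and without a filter. *Drp2*, *Foxs1*, and *Kng1* were lost in both limma alternatives, *Drp2*, *Kng1*, and *Tmem45b* (FDR 0.131 by edgeR) in the model of all 18 rats, *Foxs1* and *Kng1* with library size only, *Drp2* with upper quartile factors, and *Vat1l* did not pass the filter of at least 10 counts in every rat. The control count of 0 became 5 with DESeq2, 6 with the likelihood ratio test, and 0 to 7 with each rat left out (7 without control replicate 1 of Year 1). The interaction count of 0 became 12 with DESeq2, 7 with the likelihood ratio test, 1 with limma on log2(TPM + 1), and 0 to 1 with each rat left out. The cause of these shifts was not tested. The replicate block gave 15 calls (13 higher, 2 lower) in the treated rats, 3 in the control rats, and 0 interactions, but same-numbered treated rats deviated together only weakly (correlations -0.0628, 0.167, and 0.131 across genes), so the numbers were not taken to pair the rats.

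Some uncalled list members changed sign. With limma on log2(TPM + 0.1), *Krt5* had a log2 fold change of 0.082 and *Ckm* of -0.64. With each rat left out, values ranged from -0.059 to 1.08 for *Tnnt2*, -0.33 to 0.0045 for *Rtkn2*, -0.46 to 2.72 for *Bpifa1*, -3.45 to 4.24 for *Krt5*, -0.74 to 0.079 for *Tnfrsf17*, -0.15 to 1.52 for *Ckm*, -0.41 to 0.091 for *Lyve1*, -0.094 to 0.52 for *Comp*, -1.34 to 0.048 for *Il24*, and -2.38 to 1.25 for *Zbtb16*.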

Other observations

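*Pla2g2a*, a secreted phospholipase with antibacterial activity, had counts of 88, 200, and 210 reads in the treated rats of Year 0.5, 473, 423, and 407 reads at Year 1, and 382, 651, and 492 reads at Year 2. Its log2 fold change from Year 0.5 to Year 1 was 1.51 (95% interval 0.97 to 2.05), with an FDR of 0.109 by edgeR, and it was chosen after its values were seen.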
